A study of Mus musculus with 22 samples.

Results

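The 9 genes Slc1a2, Slc1a3, Glul, Gja1, Aqp4, Aldoc, Ntsr2, Mlc1 and Atp1b2 carry out or mark the glutamate, water and ion handling of astrocytes. They were taken by name as 9 of the 13685 rows of a count table of single cells, and all 9 had counts in every animal. The cells came by Drop-seq, a droplet method that tags the RNA of each cell with a barcode, from the hippocampus of 22 mice of mixed Fvb/B6 background. Of these, 5 were old wild-type (WT) animals of 32 to 40 weeks, 4 old rTg4510 animals of 32 to 38 weeks, 4 young WT animals of 5 to 6 weeks and 3 young rTg4510 animals of 4 to 5 weeks. The rTg4510 line carries a human tau transgene with the P301L mutation that responds to the tetracycline transactivator, and a Camk2a promoter drives that transactivator. This promoter is active in forebrain neurons and not in astrocytes. The remaining groups were 3 old P301L animals of 41 to 48 weeks and 3 old rTta animals of 33 weeks, which by their names carry one of the 2 components each, the responder or the transactivator. The labels do not spell this out.

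Astrocytes take up the glutamate that neurons release, convert it to glutamine and pass the glutamine back. The same cells clear potassium and water from around synapses and vessels, and they form a network through gap junctions. In this set Slc1a2 and Slc1a3 encode the glutamate transporters GLT-1 and GLAST, and Glul encodes glutamine synthetase. Aqp4 encodes the water channel of the astrocyte endfeet, Mlc1 a membrane protein of the endfeet that takes part in volume regulation, and Atp1b2 a beta subunit of the sodium pump. Gja1 encodes connexin 43, the main gap junction protein of astrocytes, Aldoc the brain form of the glycolytic enzyme aldolase, and Ntsr2 a neurotensin receptor that marks astrocytes.

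Nuclear factor I, a family of factors that acts in astrocyte differentiation, binds the letters TTGGC, which read GCCAA on the other strand. RefSeq promoters of build GRCm38.p6 were matched for 7 of the 9 genes, with 8 windows of the 250 bases before a transcript start. The letters occurred on either strand in 5 of the 8 windows and in 41.51% of all 32851 windows of this length, so the share in the set is a description of these few windows. The 3 windows below lie wholly before their genes and are shown because they span the set: Glul has the letters at positions -114 and -51 from the start, whereas Gja1 and Slc1a3 have no match in the window. Capitals mark the matches, each window is written 5′ to 3′ on the gene's strand, and a match is not a measured binding site. In Glul both matches overlap the CCAAT box, another common promoter motif, read on the same strand.
Glul, chr1:153899679-153899928, plus strand: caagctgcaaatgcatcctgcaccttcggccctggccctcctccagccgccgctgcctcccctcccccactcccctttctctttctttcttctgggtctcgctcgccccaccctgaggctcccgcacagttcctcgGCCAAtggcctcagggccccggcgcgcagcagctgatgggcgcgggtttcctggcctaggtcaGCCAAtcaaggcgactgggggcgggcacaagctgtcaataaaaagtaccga
Gja1, chr10:56377050-56377299, plus strand: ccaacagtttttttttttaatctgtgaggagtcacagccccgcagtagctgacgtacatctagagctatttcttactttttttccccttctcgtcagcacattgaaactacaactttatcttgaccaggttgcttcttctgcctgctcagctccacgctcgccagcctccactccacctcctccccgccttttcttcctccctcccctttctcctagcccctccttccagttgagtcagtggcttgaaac
Slc1a3, chr15:8710808-8711057, minus strand: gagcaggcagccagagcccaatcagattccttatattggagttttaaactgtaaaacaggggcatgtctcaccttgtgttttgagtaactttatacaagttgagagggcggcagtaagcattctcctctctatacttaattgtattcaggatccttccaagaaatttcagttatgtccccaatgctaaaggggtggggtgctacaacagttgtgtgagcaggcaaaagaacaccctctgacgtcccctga

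On the mouse build mm10 the genes lie on several chromosomes: Slc1a2 on chromosome 2 (102658659 to 102790784), Slc1a3 and Mlc1 on chromosome 15 (8634124 to 8710764 and 88955884 to 88979007), Glul on chromosome 1 (153899944 to 153909723) and Gja1 on chromosome 10 (56377330 to 56402513). Aqp4 lies on chromosome 18 (15389496 to 15410982), Aldoc and Atp1b2 on chromosome 11 (78322968 to 78327781 and 69599736 to 69605942) and Ntsr2 on chromosome 12 (16653382 to 16660227). All are protein coding genes in the GENCODE annotation.

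Animals had between 780831 and 6039656 counts in all, and 27198 barcodes with at least 300 counts were kept. Mapt, the tau gene, stood in excitatory neurons at 1438 to 2039 CPM (counts per 1e+06 counts of a class in an animal) in the old rTg4510 animals and at 1501 to 1642 in the young ones. In each animal of the other 4 groups it stood between 443 and 609 CPM, so this check set the rTg4510 animals apart as labelled. Wdr60, one of the genes lost where the transactivator inserted, stood over all cells at 85.0 to 205 CPM in the WT animals, at 42.5 to 69.8 in the rTg4510 animals and at 33.7 to 46.7 in the rTta animals. The P301L animals had 150.5, 87.3 and 70.3 CPM, so replicate 3 lay between these ranges, and results for P301L are also given without it where they turn on it. One old rTg4510 animal, replicate 3, held 34.1% choroid plexus cells. By the genes listed the animals fell into 2 sets: 270 genes had no count in any P301L or rTta animal but counts in every animal of the other groups, and 801 genes showed the opposite. The labels do not say how this came about. When P301L or rTta animals are set against WT or rTg4510 animals, these sets are compared as well, and a difference between the sets cannot be told apart from a difference between genotypes.

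Cells were clustered without the 9 genes and classes were named from markers that are not among them. This gave 3223 astrocytes, between 41 and 302 per animal, or 11.8% ± 3.99 (SD, n = 22) of the cells. Of the 13 astrocyte markers 12 were in the table and none was at 0 in the astrocytes of any group. The 9 genes together made up 3.44% ± 0.53 (SD, n = 22) of all astrocyte counts, from 2.21% to 4.23% by animal. That share was 3.22% ± 0.34 (n = 5) in old WT, 3.65% ± 0.52 (n = 4) in old rTg4510, 3.98% ± 0.26 (n = 3) in P301L, 3.82% ± 0.21 (n = 3) in rTta, 3.22% ± 0.46 (n = 4) in young WT and 2.88% ± 0.70 (n = 3) in young rTg4510 animals. Old WT animals had 1503 ± 127 and old rTg4510 animals 2114 ± 655 counts per astrocyte on average, P301L animals 1007 ± 231 and rTta animals 956 ± 62.0, so the latter groups were measured at lower depth per cell.

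Across the cell classes of old WT animals, 7 of the 9 genes had one pattern, high in astrocytes and low elsewhere, while Glul and Atp1b2 departed from it most, and in fibroblasts Gja1 did so too. Slc1a2 departed in part in neurons. Over all animals it stood in the neuron class at 8.62% of its astrocyte level, against 1.71% for Slc1a3, 1.48% for Gja1 and 9.37% for Atp1b2. In old WT animals the median level of the 9 genes outside astrocytes lay between 3.83% of their astrocyte level, in the class named only as neuron, and 11.5%, in mural cells. These shares describe the classes and were not tested, since other genes of the same cells had made the classes. How close the genes lay within a class varied. In oligodendrocytes 8 of the 9 genes stood between 2.61% and 6.60% of their astrocyte level. All 9 ran from 1.11% to 11.7% in interneurons, from 1.90% to 10.6% in the neuron class and from 3.99% to 26.5% in mural cells.

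Glul, glutamine synthetase, kept the largest shares of its astrocyte level in other classes. In old WT animals it stood at 3044 ± 561 CPM (SD, n = 5) in astrocytes, 1726 ± 588 in oligodendrocytes, 1402 ± 245 in microglia and 845 ± 303 in endothelial cells. Mural cells (445 ± 194, n = 3), oligodendrocyte precursors (386 ± 207), excitatory neurons (366 ± 193), interneurons (246 ± 106, n = 4) and the neuron class (243 ± 98.4) followed. The astrocyte level lay clear of the next by more than their SDs together, whereas oligodendrocytes and microglia, and all neighbours from mural cells down, lay within their spread of each other. The level in oligodendrocytes was 56.7% of that in astrocytes and the level in microglia 46.1%, against a median over the 9 genes of 4.93% and 10.8% in those classes.

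Atp1b2, the sodium pump subunit, stood in old WT animals at 1138 ± 197 CPM (SD, n = 5) in astrocytes and 302 ± 103 (n = 3) in mural cells, which is 26.5% of the astrocyte level. Over the 18 animals of all groups with enough mural cells it was at 597 ± 262 CPM there, 46.6% of the astrocyte level over all animals. Oligodendrocyte precursors followed with 196 ± 61.9 CPM. The next 5 classes, from excitatory neurons (135 ± 34.1) to the neuron class (121 ± 45.9), lay within their spread of each other, and oligodendrocytes were lowest with 55.6 ± 27.5 CPM.

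The remaining 7 genes were also highest in astrocytes. Slc1a2 stood at 9934 ± 1500.2 CPM (SD, n = 5) in astrocytes, then at 1336 ± 661 in microglia, 1284 ± 619.9 in excitatory neurons and 1187 ± 379.9 in oligodendrocyte precursors, and at 418 ± 242 (n = 4) in interneurons, where it was lowest. Slc1a3 ran from 5150 ± 889 CPM in astrocytes through 494 ± 145 in microglia to 57.1 ± 47.5 in interneurons. For both transporters each class below astrocytes differed from the next by less than the sum of their SDs. Gja1 stood at 2871 ± 433 CPM in astrocytes and at 264 ± 177 in microglia, the next class. Aqp4 stood at 1001 ± 66.6 CPM in astrocytes and at 117 ± 95.9 in oligodendrocyte precursors, its next class. Neither second class differed from the class after it by more than the spread. Aldoc (6364 ± 1033 CPM in astrocytes, 728 ± 324 in oligodendrocyte precursors), Ntsr2 (1817 ± 504 and 214 ± 271 in mural cells) and Mlc1 (831 ± 39.6 and 131 ± 79.9 in mural cells) followed the same pattern. Their second classes too lay within the spread of the third.

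Fibroblasts, which express connexin 43 in many tissues, reached 20 cells in 4 animals of all groups together. Gja1 stood there at 575 ± 234 CPM (SD, n = 4), or 20.6% of its astrocyte level over all animals. Glul stood at 21.2% and Atp1b2 at 16.7% of theirs, and the other 6 genes at 3.94% to 5.75%. Of fibroblasts thinned to 500 counts 19.1% had a Gja1 count, against 2.48% of the neuron class, at median depths before thinning of 1413 and 2221 counts.

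**Figure D1:**
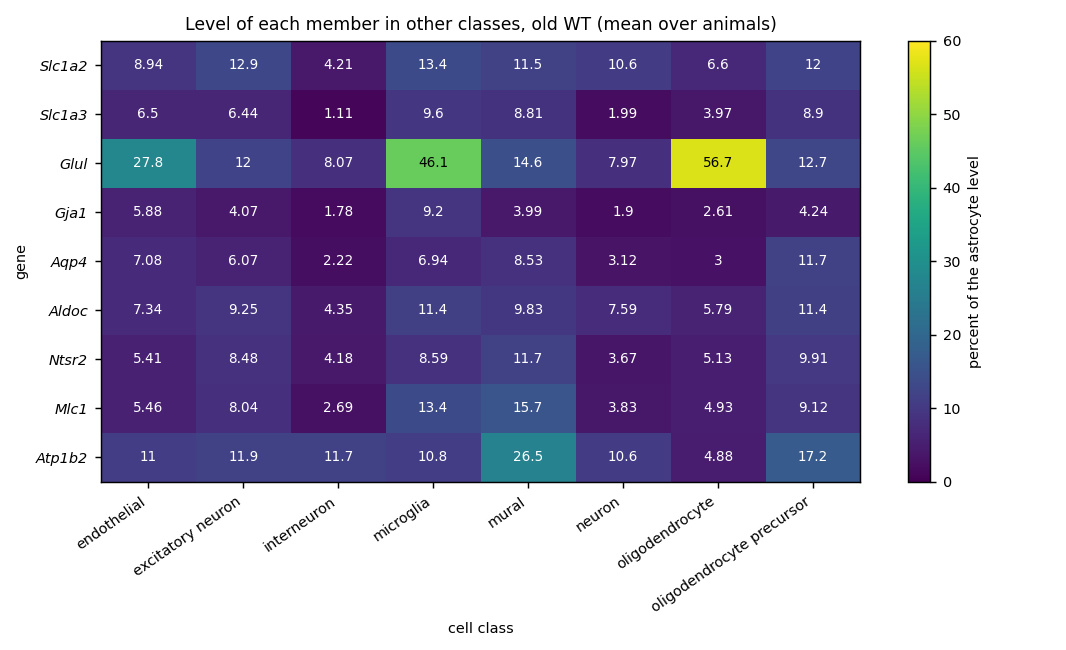
Level of each gene in 8 cell classes as a percent of its astrocyte level, in old WT animals (mean CPM over 3 to 5 animals per class; rows are genes, columns classes, colour and number give the percent). Glul in oligodendrocytes (56.7%), microglia (46.1%) and endothelial cells (27.8%) and Atp1b2 in mural cells (26.5%) stand out from the rest of their columns.

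Per cell, depth had to be made equal before shares could be compared, so each cell was thinned to 500 counts and shallower cells were left out, which kept 2847 of the 3223 astrocytes. After thinning, 97.4% of astrocytes had a Slc1a2 count, 90.9% an Aldoc count and 88.1% a Slc1a3 count. Gja1 was seen in 71.3%, Glul in 70.9%, Ntsr2 in 56.9%, Atp1b2 in 45.9%, Aqp4 in 40.5% and Mlc1 in 37.5% of them. Each of the 9 genes had its highest share in astrocytes. Before thinning this held for 7 of them, since Aqp4 and Mlc1 were then each seen in 72.1% of ependymal cells, against 62.3% and 63.3% of astrocytes. Thinned ependymal cells, which line the ventricles, showed Gja1 in 30.2%, Aqp4 in 23.3% and Mlc1 in 22.1%. There were 86 of these cells over all animals. Only 1 animal had enough of them for a share of its own, with 23.3%, 30.0% and 16.7%. In the neuron class, which should lack these genes, the thinned shares were 2.48%, 2.36% and 1.42%, and the median depth before thinning was 2221 counts against 2202 in ependymal cells and 1185 in astrocytes.

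A thinned astrocyte had counts of a median of 6 of the 9 genes, and 2.07% of them had all 9. In excitatory neurons, microglia and oligodendrocytes the median was 1. The median was 6 in the astrocytes of each group other than P301L, where it was 7. Glul was seen in 46.9% of thinned oligodendrocytes and 40.4% of thinned microglia but in 8.55% of the neuron class, and Atp1b2 in 27.9% of mural cells but 4.66% of the neuron class. Slc1a2 was seen in 36.4% of the thinned neuron class and 35.4% of thinned excitatory neurons, against 4.78% and 10.6% for Slc1a3.

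Over the 9 cell classes of old WT animals, the 5 other genes with a profile most like the mean of the set were Gjb6 (Pearson r = 0.983 of log2 CPM), Acsbg1 (0.983), Prdx6 (0.980), Gfap (0.978) and Glud1 (0.978), among 3674 genes. Gjb6, Acsbg1 and Gfap had themselves served as astrocyte markers in naming the classes. Each of the 9 points is a class from the same libraries. Within the set Glul (r = 0.647) and Atp1b2 (0.842) were least like the mean, and the other 7 lay between 0.958 and 0.977.

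In astrocytes of old rTg4510 animals Aqp4 had the largest difference from old WT of the 9 genes. Its level in old WT animals was 889, 1015, 1005, 1034 and 1063 CPM (replicates 1 to 5), and in old rTg4510 animals 1839, 1929, 1822 and 1399.7 CPM (replicates 1 to 4). All rTg4510 animals lay above all WT animals, and the groups did not overlap. The log2 change was 0.89 ± 0.23 (SE; 95% interval 0.44 to 1.34), with an adjusted p of 0.0643 in edgeR's quasi-likelihood test, so it missed the threshold of 0.05. DESeq2 gave an adjusted p of 0.0254 and a log2 change of 0.86, and Aqp4 passed in 7 of 20 alternative analyses and in 0 of the 9 that left out 1 animal, with log2 changes from 0.78 to 1.11 over all 20. The shares of all genes called in these alternatives are not given here, so the passes do not set Aqp4 apart from other genes. After thinning, 31.8% ± 6.71 (SD, n = 5) of old WT and 49.1% ± 7.43 (n = 4) of old rTg4510 astrocytes had an Aqp4 count.

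Of the 9 genes 0 were called between old rTg4510 and old WT astrocytes by edgeR at an adjusted p under 0.05, against 0.43% of the 5346 genes tested. DESeq2 called 1, Aqp4, and its share of calls over all genes is not given here. At an unadjusted p under 0.05 edgeR counted 3 of the 9 genes (Aqp4, Slc1a2 and Aldoc) and 440 of all genes. Of the 9 log2 changes 6 were positive, although Ntsr2 changed sign in some alternatives and Slc1a3, which was negative, in others, with a median of 0.19, where the median over all genes was close to 0 (-0.0012). Aqp4 and Mlc1 were the genes without overlap between the groups, and 2.86% of all genes tested showed no overlap in either direction.

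Of the glutamate genes none passed, and Slc1a2 had a positive estimate while those of Slc1a3, in some alternatives positive, and Glul were negative. Slc1a2 stood at 11955, 8835, 10413, 8115 and 10351 CPM in old WT and at 13830, 15217, 9917 and 13886 CPM in old rTg4510 animals. Replicate 3 of the rTg4510 group lay among the WT animals and the other 3 above them, for a log2 change of 0.49 ± 0.22 (edgeR adjusted p = 0.53). Slc1a3 stood at 5883, 4013, 5868, 4373 and 5612 CPM against 4771, 5141, 3496 and 5070 CPM, with rTg4510 replicate 3 below all WT animals and the rest within the WT range, and a log2 change of -0.08 ± 0.22 (edgeR adjusted p = 0.97). Glul, the enzyme downstream of both transporters, stood at 3821, 2296, 2965, 2859 and 3277 CPM in WT and 2358, 3004, 1475 and 3116 CPM in rTg4510 animals. Replicate 3 was again lowest and the others lay within the WT range, with a log2 change of -0.21 ± 0.24 (95% interval -0.67 to 0.25; edgeR adjusted p = 0.895).

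Among the membrane and ion genes, Mlc1 stood at 889, 810, 800.2, 801 and 855 CPM in old WT and at 1045, 1005, 996 and 907 CPM in old rTg4510 animals. The lowest rTg4510 animal lay just above the highest WT animal, the spread within each group was small, and the log2 change was 0.33 ± 0.19 (edgeR adjusted p = 0.68). Atp1b2 stood at 1370, 894, 1180, 982 and 1266 CPM against 1469, 1423, 767 and 1281 CPM. Its lowest value of all 9 animals was in rTg4510 replicate 3, the groups overlapped, and the log2 change was 0.19 ± 0.25 (edgeR adjusted p = 0.93). Gja1, the gap junction gene, stood at 2175, 3010, 3088, 2776 and 3306 CPM against 2545, 2714, 1331 and 2767 CPM. Replicate 3 of the rTg4510 animals was again lowest, and the log2 change was -0.21 ± 0.22 (edgeR adjusted p = 0.865). Without this animal, the one rich in choroid plexus cells, the log2 changes of Gja1 and Glul were -0.04 and -0.05, that of Slc1a3 was 0.01 and that of Atp1b2 was 0.34.

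Aldoc, the aldolase gene, stood at 6172, 6345, 8094, 5810 and 5398 CPM in old WT and 5890.4, 8481, 8216 and 9719 CPM in old rTg4510 animals. The groups overlapped through rTg4510 replicate 1, which lay below 3 of the 5 WT animals, with a log2 change of 0.43 ± 0.21 (edgeR adjusted p = 0.60). Ntsr2, the neurotensin receptor gene, stood at 1318, 1595, 2657, 1809 and 1705 CPM against 1612, 2248, 1611 and 1839 CPM. All rTg4510 values lay inside the WT range, and the log2 change was 0.09 ± 0.21 (edgeR adjusted p = 0.97).

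Gfap, the filament gene of reactive astrocytes, moved far more in the same cells, from 705, 278, 380, 481 and 243 CPM in old WT to 3166, 1884, 3757 and 1396 CPM in old rTg4510 animals. Its log2 change was 2.66 ± 0.55 (edgeR adjusted p = 0.043). Markers of other cells moved with the groups too. The 11 microglia markers summed to 576 CPM (429 to 728) in astrocytes of old WT and to 1368 CPM (459 to 2391) in those of old rTg4510 animals, the 10 oligodendrocyte markers to 3512 (1566 to 5729) and 2149 (1655 to 2617). The 8 neuron markers summed to 2261 (1457 to 3391) and 1836 (1402 to 2585) CPM, no marker of these lists was at 0 in either group, and the part of these markers in the differences of the 9 genes was not tested. Without the 234 astrocytes that held more marker counts of another class, Aqp4 had a log2 change of 0.87.

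**Figure D2:**
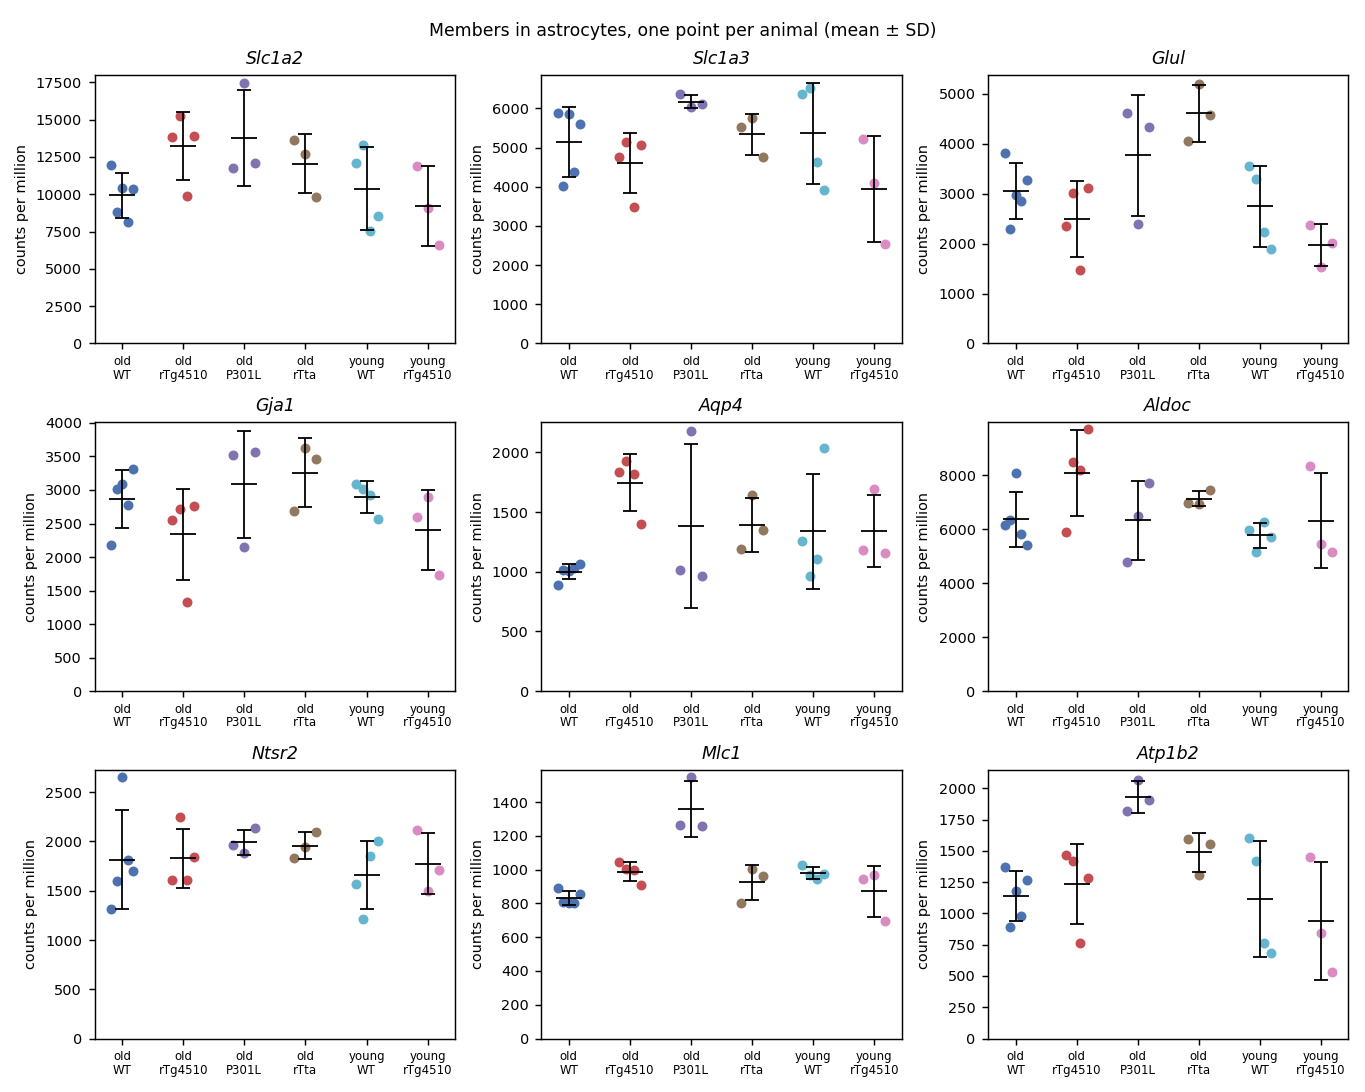
Level of each of the 9 genes in astrocytes, in CPM on a linear axis from 0, with 1 point per animal and bars for the mean ± SD of the 6 groups on the horizontal axis. Aqp4 in old rTg4510 animals (1399.7 to 1929 CPM) lies above all old WT animals (889 to 1063), Mlc1 and Atp1b2 are highest in the P301L animals, and Glul is high in all 3 rTta animals.

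Animal numbers in the labels fall into 2 ranges at each age, which may mark cohorts although the labels name no batch. Aqp4 was higher in rTg4510 animals within both, from 970 to 1884 CPM (3 WT and 2 rTg4510 animals) in the first range and from 1049 to 1611 CPM (2 and 2 animals) in the second. Mlc1 (833 to 1025 and 828 to 951 CPM) and Slc1a2 (10401 to 14524 and 9233 to 11901 CPM) also kept their direction in both. Aldoc did so with log2 ratios of 0.06 and 0.68, so its difference lay mostly in the second range, and Atp1b2 had ratios of opposite sign, 0.33 and -0.13.

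At the young age none of the 9 genes was called between rTg4510 and WT astrocytes. The edgeR count was 0 of 9, as it was 0 of 5346 (0%) for all genes. DESeq2 called 0 of the 9, and 0 of the 9 had an unadjusted p under 0.05 against 319 of all genes. Of the 9 log2 changes 2 were positive, with a median of -0.17. No gene of the set separated the groups, which 6.36% of all genes did. Aqp4 stood at 1254, 962, 1104 and 2041 CPM in young WT and at 1185, 1692 and 1157 CPM in young rTg4510 animals, and the groups overlapped. Its log2 change was -0.01 ± 0.27 (95% interval -0.53 to 0.51; edgeR adjusted p = 0.997). The most negative changes were in the glutamate genes Glul, -0.49 ± 0.27, and Slc1a3, -0.44 ± 0.25 (edgeR adjusted p = 0.82 for each). The third young rTg4510 animal had the lowest Slc1a3 (2537 CPM), Slc1a2 (6594 CPM), Mlc1 (697 CPM) and Atp1b2 (530 CPM) of its group. Oligodendrocyte markers in astrocytes were higher in young rTg4510 (5343 CPM, 2519 to 8310) than in young WT animals (2222 CPM, 1013 to 4139), and their part was not tested.

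The difference between the genotype effects at the 2 ages was tested directly. For Aqp4 it was 0.90 ± 0.35 on the log2 scale (edgeR adjusted p = 0.999), so it did not pass over all genes, of which 0 (0%) were called by edgeR and 219 had an unadjusted p under 0.05. DESeq2 called 0 of the 9. The estimate was positive for 8 of the 9 genes, with a median of 0.36. Slc1a2 came next with 0.67 ± 0.34 (edgeR adjusted p = 0.999), and Ntsr2 was the one with a negative estimate, -0.01 ± 0.32, whose sign turned in some alternatives.

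With age, too, 0 of the 9 genes were called by edgeR or DESeq2 in astrocytes, in WT or in rTg4510 animals. Of all genes edgeR called 0 (0%) in each of these comparisons, with 377 and 288 at an unadjusted p under 0.05. In WT animals the 9 log2 changes of old against young lay between -0.40, for Aqp4, and 0.16, for Glul, with a median of -0.0026 and 4 positive. Mlc1 was lower in every old WT animal (800.2 to 889 CPM) than in every young one (942 to 1026 CPM), at a log2 change of -0.22 ± 0.19 (edgeR adjusted p = 0.85), where 1.89% of all genes separated these groups. In rTg4510 animals all 9 log2 changes of old against young were positive, with a median of 0.43. Slc1a2 had the largest, 0.62 ± 0.25 (edgeR adjusted p = 0.76), from 11917, 9108 and 6594 CPM in young to 13830, 15217, 9917 and 13886 CPM in old animals. None of the 9 separated old from young rTg4510 animals, whereas 7.48% of all genes did.

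In old P301L animals the volume and ion genes Mlc1 and Atp1b2 differed most from WT. Mlc1 was at 1266, 1550 and 1257 CPM in P301L astrocytes, above each of the 5 old WT animals, with a log2 change of 0.72 ± 0.21 (edgeR adjusted p = 0.17). Atp1b2 was at 1816, 2069 and 1907 CPM, also above each WT animal, with a log2 change of 0.77 ± 0.28 (edgeR adjusted p = 0.32). Slc1a3 at 6365, 6047 and 6117 CPM was the third gene without overlap, with a log2 change of 0.27 ± 0.24, and 5.72% of all genes separated these groups. The edgeR count of called genes was 0 of the 9, against 0.0187% of all genes, while DESeq2 called 1 of the 9, Mlc1. The share of all genes that DESeq2 called is not given here. Without P301L replicate 3 the log2 changes of Mlc1 and Atp1b2 were 0.81 and 0.82, and without replicate 2 they were 0.61 and 0.71. At an unadjusted p under 0.05 edgeR counted 3 of the 9 and 541 of all genes, and all 9 log2 changes were positive, with a median of 0.31, though that of Aldoc (0.00051) turned sign when single animals were left out. One animal, P301L replicate 2, stood apart within its group: its Aqp4 was 2180.5 CPM against 1015 and 961, its Slc1a2 17479 against 11785 and 12092, its Glul 2382 against 4605 and 4323, and its Gja1 2155 against 3518 and 3574. The same animal had 4401 CPM of Gfap, against 586 and 551 in the other 2. P301L astrocytes held fewer neuron marker counts (892 CPM, 409 to 1653) than old WT astrocytes, and the part of this was not tested.

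In old rTta animals Glul was the gene that differed most from WT. It stood at 4051, 5196 and 4563 CPM, above each of the 5 old WT animals, with a log2 change of 0.61 ± 0.25 (edgeR adjusted p = 0.55). Aqp4 at 1193, 1640.2 and 1349 CPM also lay above each WT animal, with a log2 change of 0.49 ± 0.25 (edgeR adjusted p = 0.74), and 5.09% of all genes separated the groups. All 9 log2 changes were positive, with a median of 0.20 and a sign that turned for Slc1a3 (0.06) when some single animals were left out, and 0 of the 9 were called by edgeR (0.262% of all genes, with 1 of the 9 and 369 of all genes at an unadjusted p under 0.05) or by DESeq2.

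Against rTta animals, old rTg4510 animals had lower Glul throughout: 2358, 3004, 1475 and 3116 CPM lay below all 3 rTta values. The log2 change was -0.82 ± 0.26 (edgeR adjusted p = 0.11), and 15.9% of all genes separated these groups. Aqp4 overlapped there, with a log2 change of 0.40 ± 0.26 (edgeR adjusted p = 0.56). By edgeR 0 of the 9 genes were called, against 1.27% of all genes, and 1 of the 9 and 657 of all genes had an unadjusted p under 0.05. DESeq2 called 0 of the 9 as well.

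Against P301L animals, 0 of the 9 were called in old rTg4510 astrocytes by edgeR, as for all genes (0%, with 0 of the 9 and 745 of all genes at an unadjusted p under 0.05), and 0 by DESeq2. Slc1a3, Mlc1 and Atp1b2 were lower in each rTg4510 than in each P301L animal, where 13% of all genes separated the groups. Their log2 changes were -0.35 ± 0.25, -0.39 ± 0.22 and -0.58 ± 0.29. The same 3 genes separated P301L from rTta animals, where 12.7% of all genes did so. There edgeR called 0 of the 9, against 0.243% of all genes, with 1 of the 9 (Mlc1, log2 change 0.56 ± 0.23) and 408 of all genes at an unadjusted p under 0.05, and DESeq2 called 0. These comparisons share animals, so their values are given side by side and are not independent.

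**Figure D3:**
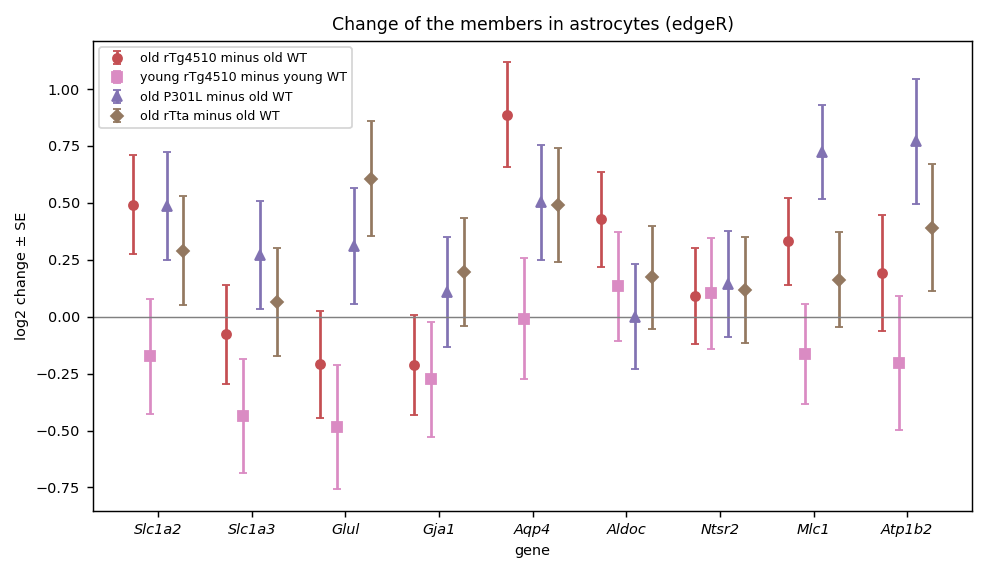
Log2 change of each of the 9 genes in astrocytes with its standard error, fitted by edgeR, for 4 comparisons marked by colour and shape; the line marks 0. Aqp4 is highest in old rTg4510 against old WT animals (0.89), Mlc1 (0.72) and Atp1b2 (0.77) in P301L and Glul (0.61) in rTta animals, and 7 of the 9 young rTg4510 changes lie below 0.

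Within an animal, astrocytes with a Gfap count could be set against those without. This was done in the 19 animals with at least 20 of each kind, over 1427 and 1796 cells in all. Aqp4 was higher in the Gfap-positive cells of 15 of 19 animals, with means of 1591 ± 587 CPM (SD, n = 19) and 1097 ± 299 CPM and a mean log2 difference of 0.49 (pseudocount of 50 CPM). A two-sided sign-flip permutation test over animals gave an adjusted p of 0.0012. Slc1a2 was higher in 18 of 19 animals (0.24, permutation adjusted p = 0.00045), Mlc1 in 16 (0.20, permutation adjusted p = 0.0012) and Glul in 17 (0.18, permutation adjusted p = 0.0062). Gja1 went the other way, lower in the Gfap-positive cells of 16 of 19 animals by a mean log2 difference of -0.28 (permutation adjusted p = 0.00058). Slc1a3 was lower (-0.10, permutation adjusted p = 0.033) and Aldoc higher (0.11, permutation adjusted p = 0.0062), so 7 of the 9 passed, while Ntsr2 (-0.01) and Atp1b2 (-0.06) did not. The test was run on the 9 genes alone, so the share of all genes that would pass is not known. The count therefore does not set these genes apart from others.

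Gfap-positive cells were deeper, with a median of 1582 counts against 972; a deeper cell is more likely to show a Gfap count. After each cell had been thinned to 500 counts, with Gfap read after thinning, 13 animals had enough cells and 3 of the 9 genes passed. Mlc1 was higher in 13 of 13 animals (0.36, permutation adjusted p = 0.0028), Aqp4 in 11 (0.47, permutation adjusted p = 0.02) and Slc1a2 in 10 (0.17, permutation adjusted p = 0.033). The difference of Gja1 was then -0.06 and that of Glul -0.02. Slc1a3 did not pass in these 13 animals, although its difference was -0.15 (permutation adjusted p = 0.083). Thinning changed the depth, the number of animals and the reading of Gfap together, and the part of each was not tested.

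**Figure D4:**
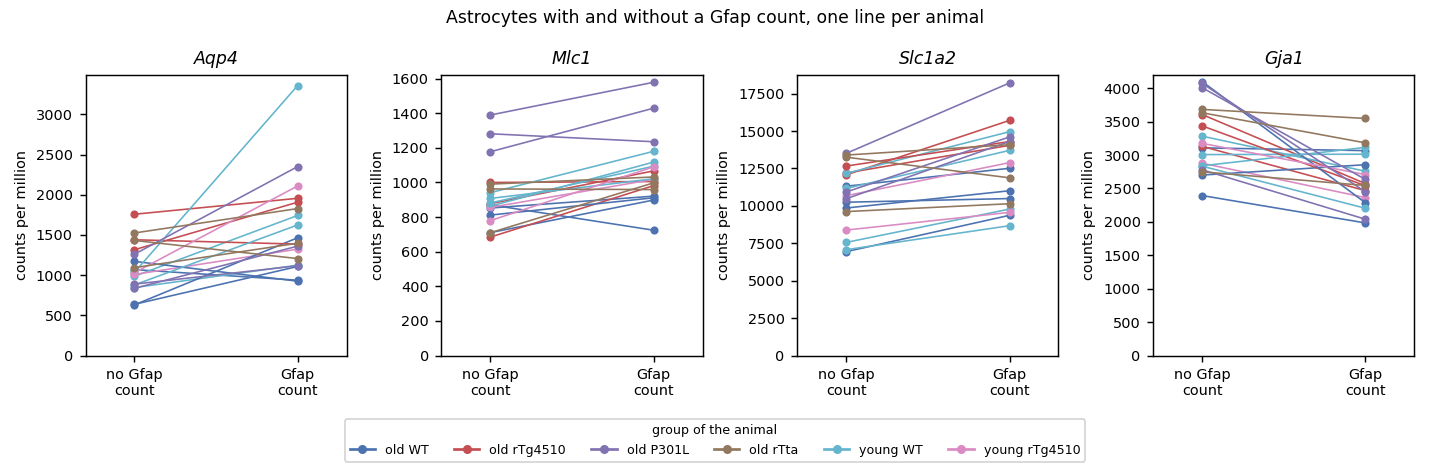
Level of Aqp4, Mlc1, Slc1a2 and Gja1 in astrocytes without (left) and with (right) a Gfap count, in CPM on linear axes from 0; each line joins the values of 1 of 19 animals and its colour gives the group. Slc1a2 lines rise in 18 animals and Aqp4 lines in 15, and Gja1 lines fall in 16; these are values before thinning.

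The astrocytes came from 2 clusters, 11 with 2397 cells and 12 with 826. In the 14 animals with at least 20 cells in both, Gja1 was higher in cluster 11 in 14 of 14, and Ntsr2, Slc1a3 and Atp1b2 in 13 of 14. Aqp4 was higher in cluster 11 in 9 of 14. The mean of Gja1 was 2994 ± 636 CPM (SD, n = 22) in cluster 11 and 1957 ± 692 CPM (n = 14) in cluster 12. These means cover all animals with at least 20 cells of the cluster, so they come from unlike sets of animals. These values describe the clusters and were not tested. Cluster 12 held 24.9% of the astrocytes of old WT and of old rTg4510 animals, 34.0% in P301L, 37.1% in rTta, 21.6% in young rTg4510 and 14.6% in young WT animals. Within clusters 11 and 12 the log2 change of Aqp4 between old rTg4510 and old WT animals was 0.78 and 0.95, and that of Mlc1 between P301L and WT animals 0.67 and 1.15. That of Glul between old rTg4510 and rTta animals was -0.79 and -1.46 (edgeR adjusted p = 0.074 and 0.010). The share of all genes called within each cluster is not given here.

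Other genes of the same tasks gave a mixed picture in old rTg4510 against old WT astrocytes. The lists were chosen with earlier results of these data known. Of 12 tested genes of glutamate and amino acid handling 0 were called by edgeR, which called 0.43% of all genes, and 3 had positive changes, with a median log2 change of -0.27. The lowest p was that of Grm3, a metabotropic glutamate receptor, at 307 and 176 CPM and a log2 change of -0.73 ± 0.28 (edgeR adjusted p = 0.43). The amino acid transporter genes Slc7a10 and Slc7a11 had values of -0.35 ± 0.27 and 0.35 ± 0.27.

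Of 13 tested genes of ion and pH handling 0 were called and 5 were positive, with a median of -0.08. Kcnj10, the potassium channel Kir4.1 that clears potassium beside Aqp4 at the endfeet, stood at 474 ± 170.4 CPM (SD, n = 5) in old WT and 911 ± 133 CPM (n = 4) in old rTg4510 animals, a log2 change of 1.01 ± 0.26 (edgeR adjusted p = 0.0576). Fxyd1, a regulator of the sodium pump, had 0.68 ± 0.22 (edgeR adjusted p = 0.22). Car2, a carbonic anhydrase that oligodendrocytes also express, had -0.55 ± 0.25, and Slc12a2, a chloride cotransporter, -0.72 ± 0.35.

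Of 6 tested genes of water channel anchoring 0 were called and 2 were positive (median -0.10), with Dmd, dystrophin, at -0.48 ± 0.26, the dystrobrevin gene Dtna at -0.14 ± 0.27 and Utrn, utrophin, at 0.12 ± 0.34. Of 2 tested gap junction genes Tjp1, which encodes the zonula occludens scaffold protein, had 0.53 ± 0.32 and Gjb6, connexin 30, -0.04 ± 0.23. Of 11 tested genes of glycolysis and lactate transport 0 were called and 4 were positive (median -0.11), with the lactate transporter Slc16a1 at 0.69 ± 0.34, the glycolytic enzyme gene Tpi1 at -0.35 ± 0.20, the glycolysis regulator Pfkfb3 at 0.70 ± 0.47 and the lactate dehydrogenase gene Ldha at -0.28 ± 0.24. Of 6 tested genes of the reactive list 2 rose, Gfap and the protease inhibitor gene Serpina3n (2.24 ± 0.48, edgeR adjusted p = 0.045), and 6 of 6 were positive, with a median of 2.26; the difference between lists was not tested. S1pr3 (3.94 ± 0.90) and C4b (2.13 ± 0.53) of the same list did not pass (edgeR adjusted p = 0.056 and 0.11).

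Outside astrocytes 1 of 67 tests of the 9 genes in 8 other classes was called between old rTg4510 and old WT animals, where edgeR called 0.536% of the 41441 tests of all genes in these classes. It was Glul in microglia. Glul stood at 1707, 1476, 1026, 1412 and 1391 CPM in the microglia of old WT animals and at 635, 538, 555 and 859 CPM in those of old rTg4510 animals. All 4 rTg4510 animals lay below all 5 WT animals, and Glul fell by a log2 change of -0.97 ± 0.23 (edgeR adjusted p = 0.0056). In microglia 4.34% of all 4218 genes tested were called and 5.71% separated the groups. Only 1 of the 9 genes had a positive log2 change there, and their median was -0.55, against -0.061 over all genes. By edgeR 3 of the 9 and 701 of all genes had an unadjusted p under 0.05. The share of thinned microglia with a Glul count was 51.7% ± 8.23 (SD, n = 5) in old WT and 26.5% ± 3.58 (n = 4) in old rTg4510 animals.

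The P301L, rTta and young WT animals lay within the range of old WT. Glul in microglia stood at 1535, 1426 and 1611 CPM in P301L, at 1152, 1316 and 1204 CPM in rTta and at 1611, 1393, 1472 and 1412 CPM in young WT animals. Of the young rTg4510 animals 2 had at least 20 microglia, with 1320 and 1017 CPM. Both lay above each of the old rTg4510 animals, where 18.8% of all genes separated these groups. They also lay below each young WT animal, where 14.5% of all genes separated the groups. Against P301L animals Glul fell in old rTg4510 microglia by a log2 change of -1.11 ± 0.25 (edgeR adjusted p = 0.0051), with 6.71% of genes called and 21.8% separating the groups. Against rTta animals the change was -0.75 ± 0.25 (edgeR adjusted p = 0.085). The difference between the ages was -0.68 ± 0.37 (edgeR adjusted p = 0.85), so a difference of the genotype effect between ages was not shown.

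Markers of astrocytes and oligodendrocytes in these microglia droplets moved as well. The 12 astrocyte markers summed to 2034 CPM (817 to 3474) in old WT microglia and 1017 CPM (690 to 1704) in old rTg4510 microglia, and oligodendrocyte markers to 4260 (2295 to 6123) and 2376 (1316 to 3926). Neuron markers differed less, at 2452 CPM in old WT and 2321 CPM in old rTg4510 microglia. In P301L and rTta microglia the astrocyte markers were lower still, at 598 (389 to 754) and 496 (331 to 606) CPM, with Glul at 1524 ± 92.9 and 1224 ± 83.9 CPM (SD, n = 3 each). Oligodendrocyte markers stood at 3232 and 3132 CPM there. A further cluster of 408 cells with microglia markers, led by Mrc1, was left unnamed. Of this cluster and microglia together it made up 18.6% of cells in old WT animals, against 13.4% in old rTg4510, and its Glul stood at 839 CPM in 2 old WT and 489 CPM in 2 old rTg4510 animals. The call for Glul in microglia was lost when genes with low counts were kept (adjusted p = 0.16), when the 9 genes took part in the clustering (0.10) and without old rTg4510 replicate 2 (0.053), all by edgeR, with log2 changes of -1.10 to -0.75 over the 17 alternatives.

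**Figure D5:**
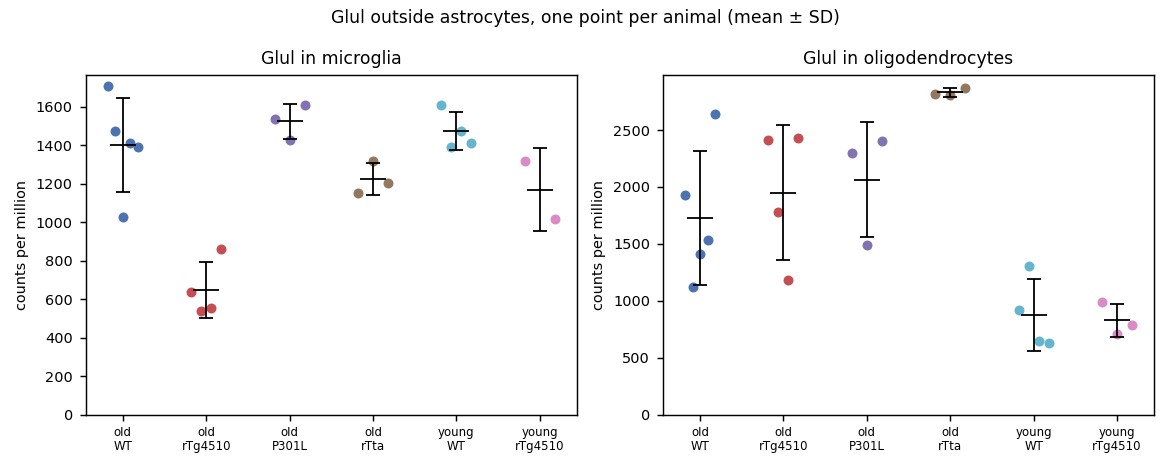
Glul in microglia (left) and oligodendrocytes (right), in CPM on linear axes from 0, with 1 point per animal and bars for the mean ± SD of the 6 groups on the horizontal axis. In microglia the 4 old rTg4510 animals (538 to 859 CPM) lie below every other animal, and in oligodendrocytes the young animals (625.2 to 1309 CPM) lie low and the 3 rTta animals (2804 to 2872 CPM) high.

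In oligodendrocytes Glul rose with age in rTg4510 animals. It stood at 992, 712 and 784 CPM in young rTg4510 animals and at 2410.4, 1781, 1179 and 2429 CPM in old ones, with no overlap. The log2 change was 1.21 ± 0.30 (edgeR adjusted p = 0.025), with 2.39% of genes called and 12.3% separating the groups. The call was lost without old replicate 1 or 4 or young replicate 2 or 3 (edgeR adjusted p of 0.0710 to 0.150), at log2 changes of 1.08 to 1.16. Markers in the same cells moved with age. The oligodendrocyte markers summed to 140657 CPM (125943 to 155183) in young and 92308 CPM (71567 to 114002) in old rTg4510 animals, the microglia markers to 154 (77.1 to 203) and 336 (238 to 550.4) and the astrocyte markers to 1197 (943 to 1341) and 1129 (980 to 1517), and their part was not tested. In WT animals it stood at 915, 1309, 649 and 625.2 CPM when young and at 1927, 1118, 1410.4, 1536 and 2640.0 CPM when old. Those ranges overlapped, and the log2 change was 0.90 ± 0.27 (edgeR adjusted p = 0.059). Between old rTg4510 and old WT animals the change was 0.20 ± 0.26 (95% interval -0.31 to 0.71; edgeR adjusted p = 0.99). The rTta animals stood at 2815, 2804 and 2872 CPM, close together and above each other animal of the series. Against old WT animals the log2 change was 0.74 ± 0.28 (edgeR adjusted p = 0.27), so it did not pass. Of all genes 7.02% separated rTta from old WT animals, 10.7% from old rTg4510 and 17.1% from P301L animals.

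The remaining calls outside astrocytes were in genes other than Glul, and astrocyte markers are given beside them. Between old and young WT animals 2 of the 9 rose in oligodendrocytes, Gja1 (1.53 ± 0.38, edgeR adjusted p = 0.0153) and Aldoc (1.14 ± 0.32, edgeR adjusted p = 0.047), where 3.42% of genes were called. Gja1 stood there at 81.9, 83.1, 33.4, 103.1 and 73.0 CPM in old and at 63.8, 13.9, 24.2 and 22.1 CPM in young WT animals, so the groups overlapped through 1 young animal; 0 of the 9 genes and 5.34% of all genes separated them. Their astrocyte markers summed to 862 CPM (522 to 1169) in old and 902 CPM (726 to 1041) in young WT animals. All 9 log2 changes in these oligodendrocytes were positive, with a median of 1.05. By edgeR 8 of the 9 and 840 of all genes had an unadjusted p under 0.05. In oligodendrocyte precursors Aldoc rose in the same comparison (1.302 ± 0.304, edgeR adjusted p = 0.049), where 0.202% of genes were called. It stood at 656, 586, 875, 1192 and 330.4 CPM in old and 260.2, 185, 351 and 363 CPM in young WT animals, with overlap, while Slc1a3 and Ntsr2 separated the groups, as 3.49% of all genes did. All 8 genes tested there had an unadjusted p under 0.05, and all had positive changes, with a median of 1.08. Astrocyte markers in these precursors summed to 3177 CPM (2463 to 3909) in old and 2273 CPM (2005 to 2786) in young WT animals, and their part was not tested.

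Between P301L and old WT animals Gja1 fell in microglia (-3.06 ± 0.65, edgeR adjusted p = 0.0085), from 5 to 28 counts per WT animal to 1 to 4 per P301L animal, where 2.99% of genes were called and 9.13%, with Gja1 the one among the 9, separated the groups. In rTta microglia Gja1 (-2.76 ± 0.60), Ntsr2 (-2.26 ± 0.58) and Atp1b2 (-2.44 ± 0.61) fell (edgeR adjusted p = 0.012, 0.031 and 0.029), where 1.35% were called and 8.18% separated the groups, Gja1 and Slc1a3 among them. Atp1b2 had 9, 0 and 0 counts in the 3 rTta animals. Of the 9 log2 changes 1 was positive in P301L microglia (median -1.29) and 0 in rTta microglia (median -1.87). By edgeR 7 of the 9 and 744 of all genes had an unadjusted p under 0.05 in P301L microglia. In rTta microglia these were 8 of the 9 and 644 of all genes. In both cases the astrocyte markers in the same droplets were lower too, at 598 and 496 CPM against 2034 CPM. In P301L oligodendrocytes Ntsr2 fell against old WT (-2.30 ± 0.48, edgeR adjusted p = 0.027; 0.432% of genes called), and Gja1, Ntsr2 and Atp1b2 separated the groups, as 7.75% of all genes did. Aqp4 (2.55 ± 0.65), Aldoc (1.63 ± 0.39) and Ntsr2 (2.27 ± 0.49) were higher in old rTg4510 than in P301L oligodendrocytes (edgeR adjusted p = 0.049, 0.043 and 0.025; 0.756% called, 12.7% separating the groups), with astrocyte markers at 1129 CPM (980 to 1517) against 548 CPM (533 to 558). Without P301L replicate 3 these calls in oligodendrocytes were lost, with adjusted p from edgeR of 0.081 for Ntsr2 against old WT and of 0.16, 0.11 and 0.070 for Aqp4, Aldoc and Ntsr2 against rTg4510. The 9 genes in oligodendrocytes had a median log2 change of -1.39 for P301L against old WT, with 1 positive. For old rTg4510 against P301L the median was 1.3, with 8 positive. In each, 7 of the 9 had an unadjusted p under 0.05 by edgeR, against 694 and 733 of all genes. Each call outside astrocytes other than that of Glul in microglia of old rTg4510 against P301L animals was lost when at least 1 single animal was left out, and that of Aldoc in oligodendrocyte precursors with any animal left out other than old WT replicate 5 (edgeR adjusted p = 0.010 without it). Some calls were also lost with all animals kept. That of Aldoc in oligodendrocytes of old against young WT animals was lost with RLE factors (edgeR adjusted p = 0.0501), without the filter (0.121) and with only the groups compared (0.129). With new clusters at 500 counts edgeR adjusted p was 0.124 for Aldoc and 0.078 for Gja1 there. In rTta microglia it was then 0.14 for Ntsr2 and 0.12 for Atp1b2. Over all comparisons 14 of 646 tests of the 9 genes outside astrocytes were called, against 0.427% of 393920 tests of all genes, and those in the P301L and rTta groups also compare the 2 sets of animals.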

How the data were processed

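Single-cell counts were measured by Drop-seq in the hippocampus of 22 mice. The authors deposited a table of whole-number counts per gene and cell barcode; bcl2fastq 2.18.0.12, STAR 2.2 and the mm10 build come from the submitters' processing notes. How molecular identifiers were collapsed is not given in the sources used here. No marker of batch is given, and each animal is a separate sample.

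Barcodes with at least 300 counts were clustered with scanpy 1.11.5 (2000 variable genes without the 9 genes, 40 principal components, 15 neighbours, Leiden resolution 1). A cluster took the class with the largest share of its measured markers at least 2-fold higher than elsewhere after adding 20 CPM, if at least 3 were. Clusters where many markers of an unrelated class were up too stayed unnamed. Among these were 186 cells with 10 oligodendrocyte and 6 astrocyte markers up, and 93 with 10 oligodendrocyte and 10 endothelial markers up. The 408 cells led by Mrc1 stayed unnamed because their leading list had 1 measured marker. These rules named 24611 cells and left 2587 unnamed. No doublet caller was run. In an alternative, 2164 cells with more marker counts of some other class than of their own or a related class were left out. Of 30244 barcode sequences 219 occurred in more than 1 animal, among them those of 61 astrocytes.

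Counts were summed per animal and class (at least 20 cells), keeping the 12614 genes counted in every animal, and CPM is per 1e+06 of these. edgeR 4.0.16 (TMM factors, its expression filter, quasi-likelihood test) was fitted once per class over the 6 groups, with Benjamini-Hochberg adjustment over all genes of the class and a threshold of 0.05; log2 changes are its estimates. The code was tested on simulated data. Alternatives included DESeq2 1.42.0, other filters, and leaving out each animal. The Gfap split used 100000 resamples. Named genes were the 9 genes, for each list of related genes those past the threshold or up to 4 with the smallest p, and the 5 genes most like the mean profile. Some genes that this rule names are not reported here. The members and lists were chosen with earlier results of these data known.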

Additional observations from a re-analysis of the deposited data

Results flagged for a closer look

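Gja1, the connexin 43 gene, stood at 1331 CPM in the astrocytes of old rTg4510 replicate 3, far from the other 3 animals of the group at 2545 to 2767 CPM. It was the one value, among 27 groups of 4 or 5 animals checked, whose gap to its nearest neighbour was large for the range of its group. Chance alone gives such a gap in about 1 of 20 groups, so 1 value among the 27 is about the number it would give. The same animal held 34.1% choroid plexus cells, and the part of this in the Gja1 level was not tested.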

How the results depend on the processing

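Counts of called genes changed in these cases. In astrocytes of old rTg4510 against old WT animals edgeR's main analysis called 0 of the 9 genes, and 1 (Aqp4) was called with DESeq2, without the filter on low counts, with a barcode minimum of 500 and new clusters, with the 9 genes among the variable genes, without cells holding more marker counts of another class, with a term for the range of animal numbers, and with only the groups compared. Mlc1 was the 1 gene called by DESeq2 for P301L against WT. Against rTta animals 1 gene (Glul) was called with only the groups compared and in astrocyte cluster 12 alone. Outside astrocytes the 1 call of the main analysis for old rTg4510 against old WT became 0 without the filter and with the 9 genes among the variable genes. With an animal left out it became 0 to 2: 0 without old rTg4510 replicate 2, and 2 without old WT replicate 1 or old rTg4510 replicate 3. In oligodendrocytes of old rTg4510 against P301L animals Aqp4 fell to a log2 change of 1.40 with new clusters at 500 counts (edgeR adjusted p = 0.41). After thinning, 3 of the 9 genes passed in the Gfap split in place of 7. The shares of all genes called in these alternatives are not given here, and the cause of these changes was not tested.

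Of 853 alternative values for 49 results 718 kept their direction and their side of the threshold, 81 lost the threshold, 10 gained it and 44 changed sign. Without an animal being left out, 18 values changed sign: for old rTg4510 against WT, Slc1a3 was 0.0247 without the filter and 0.0857 with new clusters at 500 counts, Gja1 was 0.0334 with the latter and Ntsr2 -0.20 in cluster 12; for the young comparison, Aqp4 was 0.0115 with RLE factors, 0.0119 with DESeq2, 0.11 without mixed cells and 0.14 in cluster 11, and Ntsr2 -0.0235 with new clusters. For old against young rTg4510, Gja1 was -0.0228 without mixed cells and -0.0803 in cluster 11. For P301L against WT, Aldoc was -0.00581 without the filter and -0.0274 in cluster 11; for rTta against WT, Slc1a3 was -0.067 in cluster 12; for rTg4510 against P301L, Aldoc was -0.20 in cluster 12. For the interaction, Ntsr2 was 0.15 without the filter, 0.24 with new clusters and 0.0304 with the 9 genes among the variable genes.

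With an animal left out, values that changed sign ranged as follows. For old rTg4510 against WT, Slc1a3 ran from -0.17 to 0.0149 and Ntsr2 from -0.0337 to 0.29. For the young comparison, Slc1a2 ran from -0.48 to 0.0285, Aqp4 from -0.19 to 0.27, Aldoc from -0.20 to 0.28, Ntsr2 from -0.12 to 0.22 and Atp1b2 from -0.78 to 0.0683. Gja1 for old against young rTg4510 ran from -0.14 to 0.23, Aldoc for P301L against WT from -0.12 to 0.18, Slc1a3 for rTta against WT from -0.0142 to 0.14 and the Ntsr2 interaction from -0.14 to 0.21. None of these passed the threshold in the main analysis.

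Analyses of cluster 11 or 12 alone and of barcodes over 500 counts with the classes kept were chosen after seeing the data. No paired analysis was possible because the animals of different groups share no pairing in the labels. Astrocyte totals of 70789 to 491134 counts per animal limit the precision of the less abundant genes.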
